A study of Mus musculus with 2 samples.

Results

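Liver X receptors (LXRs) and the genes they control in the handling of lipids were followed in marrow-derived macrophages with and without Tipe1. The group holds 10 of the 46095 genes in the deposited table, chosen by symbol as the LXR genes and their targets in lipid efflux or lipoprotein metabolism: Nr1h3, Nr1h2, Abca1, Abcg1, Apoe, Lpl, Pltp, Mylip, Srebf1 and Scd2. They were chosen with their values in this comparison known, so their differences are given as a description. All 10 reached the level required of a tested gene, a mean of 1 or more over both libraries in CPM, reads scaled to an effective library size of 1000000. Total RNA was sequenced from C57BL/6 marrow cells cultured for 5 days with 100 ng/ml M-CSF, the growth factor of the macrophage lineage. The KO library carries the genotype label TIPE1-/-, and the design text of the series describes the mice as LyzM-Cre with Tipe1f/f alleles. LyzM-Cre expresses Cre recombinase from the lysozyme locus in myeloid cells. The WT library is labelled wild type, and the design text describes the control mice as Tipe1f/f without naming Cre. The sources used here do not state the number, age or sex of the mice. With 1 library per genotype no difference has a replicate check and no test was possible. Intervals in parentheses are 95% counting intervals and cover counting error only.

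LXRα (encoded by Nr1h3) and LXRβ (Nr1h2) are nuclear receptors activated by oxysterols, oxidised forms of cholesterol that build up when a cell is loaded with it. They bind DNA as partners of the retinoid X receptors (RXRs), at paired hexamers spaced by 4 bases that are called DR4 elements. In macrophages, which take up lipoproteins and the lipids of dead cells, their targets move cholesterol out of the cell, reduce further uptake and raise fatty acid synthesis.

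The DR4 elements near the start sites of the group's genes are shown first, because the receptors are known to act on their targets through such elements. RefSeq windows (GRCm38.p6) from 250 bases before to 50 after a start were available for 7 of the 10 genes, 12 windows in all. Lpl, Abcg1 and Scd2 had no window. The element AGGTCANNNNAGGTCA was searched on both strands with up to 3 mismatches in its 12 fixed letters. It matched 1 window of Abca1 and 1 of the 3 windows of Srebf1, and none of Nr1h3, Nr1h2, Apoe, Pltp or Mylip. A match of this quality is common, present near 24.5% of 27025 genes. The matched stretches of Abca1 and Srebf1 had more letters in common than the search required, and on the strand opposite to the gene both read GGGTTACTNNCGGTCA. That form, written down after reading these 2 genes, occurred without mismatch in 3 of the 27025 genes on either strand, these 2 included by construction. The other one was Fasn, the fatty acid synthase gene and a further LXR target. In the sequences below, read along the gene from 5′ to 3′, capitals mark the 16 letters of the element.
Abca1, chr4:53159905-53160004, minus strand, element at -67 to -52: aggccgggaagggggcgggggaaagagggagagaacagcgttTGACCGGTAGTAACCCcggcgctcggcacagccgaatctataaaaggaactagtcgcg
Srebf1, chr11:60210596-60210695, minus strand, element at -182 to -167: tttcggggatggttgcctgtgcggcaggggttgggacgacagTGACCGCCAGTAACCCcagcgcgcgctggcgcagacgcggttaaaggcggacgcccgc
Fasn, chr11:120824715-120824797, minus strand, element at -225 to -210: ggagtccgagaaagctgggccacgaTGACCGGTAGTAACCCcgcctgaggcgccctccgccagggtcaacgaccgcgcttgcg
The Srebf1 element lies before an annotated start that is 12110 bases downstream of the gene's first start. A match of letters is a description of the sequence, and binding was not measured.

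The 2 libraries held 11782664 (WT) and 15815956 (KO) counted reads. Tnfaip8l1, the gene of TIPE1, had 21 reads in WT and 3 in KO, 8.94-fold lower (2.67 to 46.8). It averaged 0.967 CPM, under the level required of a tested gene. Lyz2, the locus of the Cre, was 1.86-fold lower. Fibroblast and stromal markers summed to 2194 CPM in WT and 198 CPM in KO, with 16 of 17 tested members at least 1.5-fold lower and Tagln listed at 0 in both. Monocyte markers summed to 1141 and 412 CPM, with 5 of 8 lower, and neutrophil markers to 884 and 632 CPM, with 4 of 10 lower. B cell markers summed to 14.7 and 2.66 CPM, with all 5 tested members lower. Of 12 macrophage markers, all of them tested, 1 was higher and 2 were lower, with Csf1r at 2646 CPM in WT and 2414 CPM in KO and Cd68 at 1493 and 1589 CPM. Whether a lower marker sum reflects fewer cells of that type or less RNA per cell cannot be told apart in bulk RNA.

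The group went in both directions in the KO library. Lpl, Nr1h3, Scd2 and Abcg1 were higher, Apoe and Mylip were lower, and Abca1, Srebf1, Nr1h2 and Pltp differed by less than 1.5-fold. A gene is called higher or lower here when the libraries differ by at least 1.5-fold and the counting interval excludes 1. By that rule 4 of the 10 were higher and 2 lower, and over all 12495 tested genes 6.47% were higher and 7.23% lower. At 2-fold, Lpl and Nr1h3 were higher and none of the 10 was lower, although Nr1h3 was 1.96-fold higher with total counts for scaling. At that threshold 2.59% of all tested genes were higher and 4.78% lower. The gene nearest to the 1.5-fold line on the called side was Mylip at 1.54-fold, and Abca1 at 1.19-fold was the nearest on the other. The median log2 ratio of KO over WT was 0.15 for the 10 genes and 0.01 for all tested genes.

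**Figure D1:**
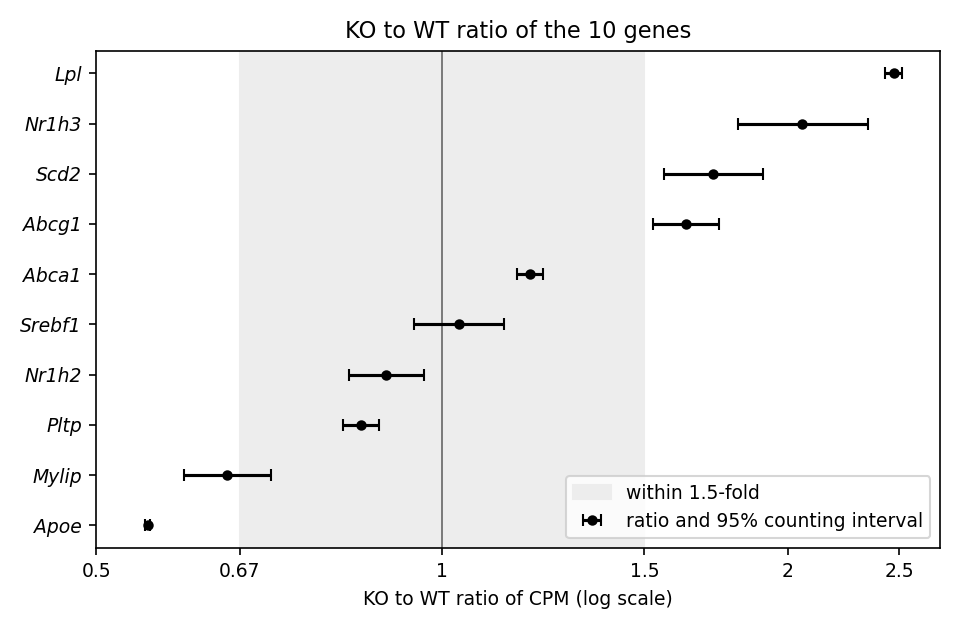
KO to WT ratio of normalised read count (CPM) for each of the 10 genes on a log axis, with points for the ratio, bars for the 95% counting interval and shading for differences under 1.5-fold. Lpl (2.47), Nr1h3 (2.06), Scd2 (1.72) and Abcg1 (1.63) lie right of the shading, and Mylip (0.650) and Apoe (0.554) lie left of it.

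The receptors differed from each other. Nr1h3 (GRCm38 chromosome 2, 91184061 to 91202834) had 324 reads in WT and 852 in KO, or 26.8 and 55.2 CPM. LXRα RNA was thus 2.06-fold higher (1.81 to 2.35) in the KO library, the 234th highest ratio of the 12495 tested genes. Nr1h2 (chromosome 7, 44549616 to 44553951) stood at 107 CPM in WT and 95.6 CPM in KO, 1.12-fold lower (1.04 to 1.21). Per kilobase of exon, Nr1h3 made up 19.0% (17.1 to 20.9) of the reads of the pair in WT and 35.0% (33.1 to 37.0) in KO. LXRβ RNA therefore stayed the larger of the pair in both libraries, by a smaller margin in KO. None of the 6 tested genes within 100 kb of Nr1h3 was called. Its neighbour Acp2, a lysosomal acid phosphatase gene, came closest at 1.47-fold higher.

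**Figure D2:**
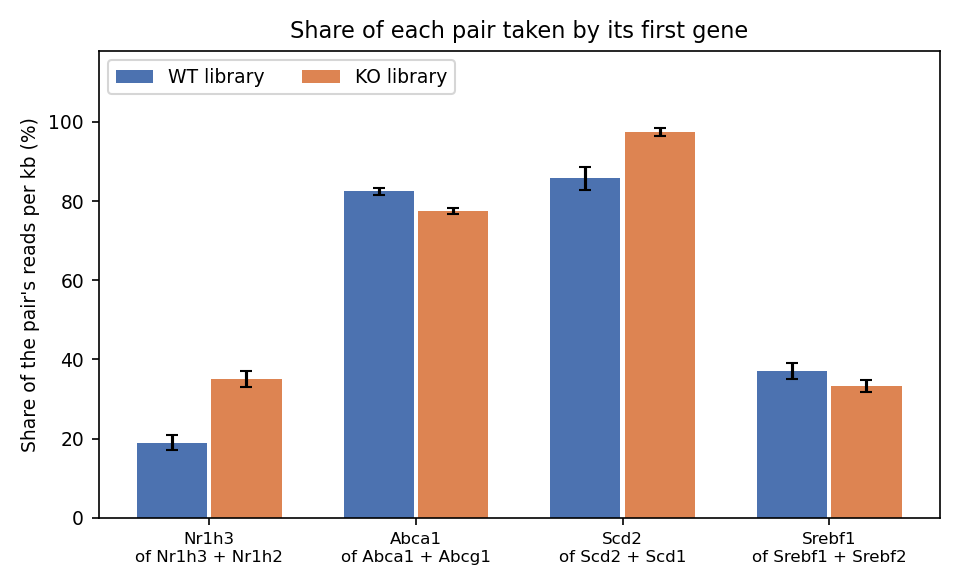
Share, in percent, that the first gene of each pair takes of the pair's reads per kilobase of exon, in the WT and KO libraries, with bars from 0 and 95% counting intervals. Nr1h3 moves from 19.0% in WT to 35.0% in KO and Scd2 from 85.9% to 97.6%, whereas Abca1 goes from 82.5% to 77.5% and Srebf1 from 37.0% to 33.3%.

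Of 20 partners and cofactors of the LXRs 16 were tested, and 0 were higher and 0 lower, with a median log2 ratio of 0.09. With 6.47% and 7.23% of all tested genes called, a list of this size would hold few calls in any case. Rxra, which encodes the main RXR in myeloid cells, stood at 188 CPM in WT and 137 CPM in KO, 1.37-fold lower (1.29 to 1.46). Rxrb was listed at 4 and 3 reads and Rxrg at 0 in both libraries, and reads left uncounted cannot be told apart from low RNA there. Ncor1, a corepressor that holds LXR targets silent without ligand, had a ratio of 1.08. Med1, a Mediator subunit that links nuclear receptors to RNA polymerase, had a ratio of 1.25. Pparg, a nuclear receptor that acts upstream of Nr1h3 in macrophages, stood at 20.0 and 23.5 CPM, and its ratio of 1.18 had an interval that includes 1 (0.996 to 1.39).

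Of the cholesterol efflux transporters, Abcg1 was higher in the KO library and Abca1 stayed under the 1.5-fold line. Abca1 (chromosome 4, 53030787 to 53159895) loads cholesterol and phospholipid onto lipid-poor apolipoproteins. It had 9247 reads in WT and 14083 in KO, 766 and 913 CPM, a 1.19-fold difference (1.16 to 1.22) that lies under the 1.5-fold line. Abcg1 (chromosome 17, 31057675 to 31117988) passes cholesterol on to mature high-density lipoprotein. It had 1310 and 2726 reads, 108 and 177 CPM, and was 1.63-fold higher (1.52 to 1.74). The transporters' counting intervals do not overlap, and per kilobase Abca1 exceeded Abcg1 4.70-fold in WT and 3.44-fold in KO. Abcg1 shares its chromosome with Tnfaip8l1, at a distance of 25.04 Mb. Abca7, a relative of Abca1, stood at 74.2 and 79.8 CPM. The transporter genes Abcg4, Abcg5 and Abcg8 had at most 1 read in either library.

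Of the secreted proteins that act on lipoproteins, Apoe was lower, Lpl higher and Pltp under the 1.5-fold line. Apoe (chromosome 7, 19696109 to 19699188) encodes the apolipoprotein that macrophages secrete with exported cholesterol and that carries remnants to their receptors. It had 347061 reads in WT and 245627 in KO, or 28735 and 15920 CPM. It was 1.80-fold lower (1.80 to 1.81) in KO, and went from 2.95% of all counted reads in WT to 1.55% in KO. The KO to WT ratio of Apoe, 0.5540 (0.5512 to 0.5569), ranged from 0.5273 to 0.5574 over the library scalings tried. Every other scaling took it outside the counting interval, which does not cover the choice of scaling. Lpl went from 0.153% of the reads in WT to 0.359% in KO, and the other 8 genes together from 0.173% to 0.181%. Apoe was the most abundant gene of the WT library and the third most abundant of the KO library. Its tested neighbours within 100 kb, Clasrp, Relb, Clptm1, Tomm40 and Nectin2, had ratios from 0.783 (Nectin2) to 1.31 (Relb) and none was called. The apolipoprotein genes of the same cluster were listed near 0, with 9 and 5 reads for Apoc1, 13 and 10 for Apoc2 and 0 and 1 for Apoc4. How the counting treated reads that overlap genes or map to several places is not stated, so such low values may be reads left uncounted.

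Lpl (chromosome 8, 68880491 to 68907448) encodes lipoprotein lipase, which frees fatty acids from the triglyceride of lipoproteins. It had 17971 reads in WT and 56722 in KO, 1488 and 3676 CPM, and was 2.47-fold higher (2.43 to 2.51). Among the 79 genes that averaged 1000 CPM or more, a limit set after the values were seen, Lpl had the highest ratio and Apoe the lowest but one, after Lyz2. Of those 79, 11 were called higher and 3 lower, and of all 12495 tested genes 6.47% and 7.23%. Per kilobase of exon, Apoe RNA exceeded Lpl RNA 43.2-fold in WT and 9.70-fold in KO. Lipa, the lysosomal acid lipase gene, was above Lpl per kilobase in WT and below it in KO, where Lpl exceeded it 1.36-fold. Pltp (chromosome 2, 164839518 to 164857711), which moves phospholipid between lipoproteins, had 5686 and 6178 reads, 471 and 400 CPM, 1.18-fold lower (1.13 to 1.22). Pltp shares 495 of its 2354 exonic bases with Ctsa on the other strand, which had 14823 and 19189 reads. As the strand setting of the counting is not given, reads there cannot be assigned with certainty.

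**Figure D3:**
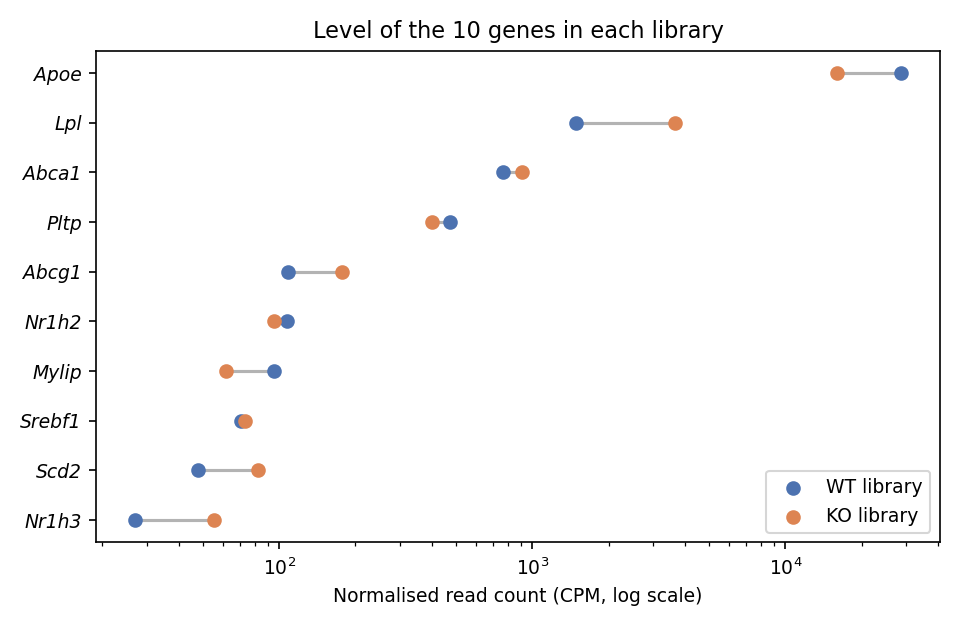
Normalised read count (CPM, log axis) of each of the 10 genes in the WT library and the KO library, with a grey line joining the values of a gene. The levels span from Nr1h3 (26.8 CPM in WT) to Apoe (28735 CPM in WT), and the longest lines are those of Lpl, Nr1h3 and Apoe.

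The list for lipoprotein lipase control held 17 genes, among them the other lipase genes Lipa, Lipc and Lipg. Of the 17, 7 were tested, and 0 were higher and 0 lower, too few to set against the 6.47% and 7.23% of all tested genes. The list's median log2 ratio of 0.21 was the value of Lipa itself. That median was -0.24 with no filter on low genes and 0.01 at a mean of 10 CPM or more. Sel1l and Lmf1, which are needed for the lipase to fold and leave the endoplasmic reticulum, had ratios of 1.30 and 0.807. Sdc1, a heparan sulfate proteoglycan of the cell surface, stood at 108 CPM in WT and 156 CPM in KO, and Furin, which can cleave the lipase, at 191 and 148 CPM. Gpihbp1, which holds the lipase on capillary endothelium, had 2 and 0 reads, and Angptl4, which inactivates it, had 3 and 0. A count of 3, the detection floor used here, corresponds to 0.248 CPM in WT and 0.194 CPM in KO. Adipocytes, which also make much lipase, have Adipoq, Lep, Plin1 and Cidec as defining markers, and all 4 were listed at 0 in both libraries, where a 0 can also stand for uncounted reads. Of the 15 adipocyte markers 9 were at 0 in each library, and the list summed to 483 CPM in WT and 418 CPM in KO, mostly through Fabp4, Pnpla2 and Cebpa, which macrophages express too. The part of adipocytes or of stromal cells in the Lpl difference was not tested.

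Mylip (chromosome 13, 45389742 to 45412022) encodes IDOL, the ubiquitin ligase through which LXRs send lipoprotein receptors to degradation. It had 1146 reads in WT and 952 in KO, 94.9 and 61.7 CPM, and was 1.54-fold lower (1.41 to 1.68). Vldlr, whose protein is a target of IDOL, had 86 and 32 reads and was 3.43-fold lower (2.26 to 5.33). Lrp8, another target, stood at 7.53 CPM in WT and 9.53 CPM in KO, with an interval that includes 1. IDOL's action on the receptor proteins was not measured. Stromal and monocyte marker sums were also lower in the KO library, and their part in the lower Mylip, Apoe and Vldlr was not tested.

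Of 18 receptors and receptor-handling genes 16 were tested, and the median log2 ratio was 0.03. Of the 16, 3 (18.75%) were higher and 2 (12.5%) lower, against 6.47% and 7.23% of all tested genes. The scavenger receptor gene Cd36 was 1.53-fold higher at 2398 against 1563 CPM, and 1.46-fold higher when total counts were used for scaling. Lsr, the lipolysis-stimulated receptor gene, stood at 6.09 CPM in KO and 15.1 CPM in WT. Olr1, named here although it is below the level set for named genes, had 67 reads in KO and 16 in WT. Lrp1, a large receptor for Apoe-bearing remnants, was close to level at 1418 CPM in WT and 1505 CPM in KO.

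The lipogenic genes of the group differed from each other. Srebf1 (chromosome 11, 60199089 to 60222581) encodes SREBP1, the factor through which LXRs drive fatty acid synthesis. It had 851 reads in WT and 1125 in KO, 70.5 and 72.9 CPM, with a ratio of 1.03 (0.946 to 1.13) whose interval includes 1, and 109 of its 4299 exonic bases overlap Rai1 on the other strand. Scd2 (chromosome 19, 44293674 to 44306864) encodes a stearoyl-CoA desaturase, which makes monounsaturated fatty acids. It had 577 and 1269 reads, 47.8 and 82.2 CPM, and was 1.72-fold higher (1.56 to 1.90). Scd1, its close copy within 100 kb, went the other way, with 84 reads in WT and 28 in KO, 3.83-fold lower (2.47 to 6.11). Per kilobase of exon, Scd2 made up 85.9% (82.9 to 88.6) of the pair in WT and 97.6% (96.5 to 98.4) in KO. The split between these copies is uncertain, since it is not given how reads that fit both were counted.

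None of the 3 genes printed above with the shared element reached the 1.5-fold line. Of all tested genes 6.47% were called higher and 7.23% lower, so 3 genes are too few to set against that share. Abca1, Srebf1 and Fasn had KO to WT ratios of 1.19, 1.03 and 1.27. The counting interval excluded 1 for Abca1 (1.16 to 1.22) and Fasn (1.16 to 1.39) and included 1 for Srebf1. Fasn stood at 62.8 CPM in WT and 79.5 CPM in KO. The called genes with a window, Nr1h3, Apoe and Mylip, had no match to the DR4 search in it, which says only that these letters are not in those windows. A match was present near 24.5% of 27025 genes, so most genes have none, and no link between match and ratio was tested.

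A list of other genes reported as LXR targets also went in both directions. Of 29 listed genes 20 were tested, with 2 (10%) higher, 3 (15%) lower, 15 neither and a median log2 ratio of 0.04. Over all tested genes 6.47% were higher and 7.23% lower. Cd5l, which encodes the secreted macrophage survival protein AIM, had 237 reads in WT and 876 in KO, 2.89-fold higher (2.50 to 3.35). Ccnd1, the cyclin D1 gene, was 1.92-fold higher. Arl4c, a small GTPase gene, stood at 160 CPM in WT and 63.1 CPM in KO, 2.54-fold lower (2.35 to 2.75). The other lower genes were Scd1 and, below the level set for named genes, Elovl6, a fatty acid elongase gene with 63 and 45 reads. Mertk, a receptor for apoptotic cells, stood at 178 and 143 CPM, and Npc2, which exports cholesterol from the lysosome, at 1109 and 1271 CPM.

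The SREBP pathway, which senses sterol in the endoplasmic reticulum, had 16 tested genes, with a median log2 ratio of -0.02. Of the 16, 3 (18.75%) were higher and 2 (12.5%) lower, against 6.47% and 7.23% of all tested genes. At a mean of 10 CPM or more the median was 0.19, with 3 genes higher and 0 lower. Insig1, which retains the SREBPs in the endoplasmic reticulum, stood at 54.0 CPM in WT and 82.1 CPM in KO, 1.52-fold higher. With total counts for scaling it was 1.45-fold higher, which ends the call. The lower genes were Scd1 and Elovl6, given above. Srebf2, the gene of SREBP2, stood at 141 and 172 CPM, and per kilobase Srebf1 was 37.0% of the Srebf1 and Srebf2 pair in WT and 33.3% in KO.

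Of 23 tested genes of cholesterol storage, oxysterols and transport 1 (4.35%) was higher and 1 (4.35%) lower, against 6.47% and 7.23% of all tested genes. The median log2 ratio was 0.06. Cav1, which encodes caveolin-1, stood at 45.3 CPM in WT and 16.4 CPM in KO, alongside the lower stromal markers, whose part in it was not tested. Gramd1a, which carries plasma membrane cholesterol to the endoplasmic reticulum, was 1.52-fold higher, and 1.44-fold with total counts. Soat1, which esterifies cholesterol for storage, stood at 730 and 688 CPM. Cyp27a1, which makes the LXR ligand 27-hydroxycholesterol, stood at 43.3 CPM in WT and 32.3 CPM in KO, 1.34-fold lower (1.18 to 1.52). Ch25h, which makes another oxysterol, had 10 and 3 reads. Over the 6 lists together, 88 different genes were tested, of which 9.09% were higher and 6.82% lower, against 6.47% and 7.23% of all tested genes.

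**Figure D4:**
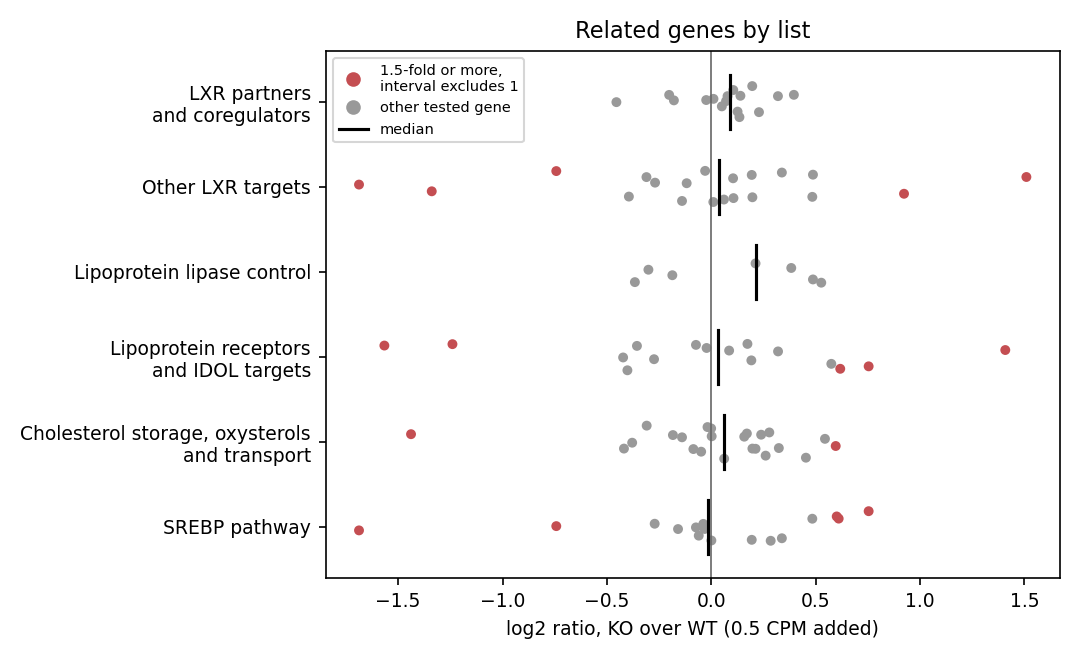
log2 ratio of KO over WT (0.5 CPM added) for each tested gene of 6 lists related to LXRs and lipoproteins, with a black bar at the median and red points for genes called higher or lower. All 6 medians lie between -0.02 and 0.21, and the lists of LXR partners and of lipase control hold no red point.

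**Figure D5:**
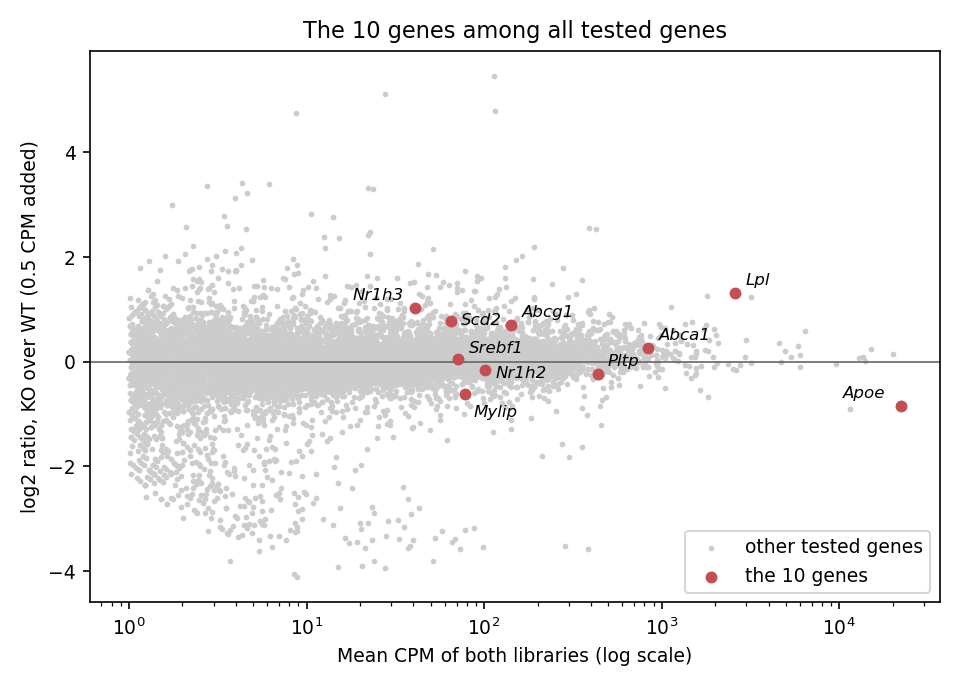
log2 ratio of KO over WT (0.5 CPM added) against mean CPM (log axis) for 12495 tested genes, with the 10 genes in red. Lpl (1.30) and Apoe (-0.85) lie outside most genes of like abundance, and Srebf1 (0.05) and Nr1h2 (-0.16) lie within the bulk.

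Compared per kilobase of exon, the order of the 10 genes was the same at the top in both libraries. Apoe came first with 15634 CPM per kilobase in WT and 8661 in KO, followed by Lpl (362 and 893), Pltp (200 and 170), Abca1 (74.6 and 88.9) and Nr1h2 (53.3 and 47.7). Below them the order differed. In WT Mylip (29.3) was followed by Srebf1 (16.4) and Abcg1 (15.9), which did not differ beyond counting error, then Nr1h3 (12.5) and Scd2 (8.76). In KO Abcg1 (25.9) and Nr1h3 (25.7) did not differ beyond counting error and came before Mylip (19.1), Srebf1 (17.0) and Scd2 (15.1). Exon lengths came from GENCODE M21 and may differ from those of the isoforms present.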

How the data were processed

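The authors deposited 1 table of raw read counts per gene symbol, 46095 rows long, with a column for each library, per the file headers. The submitters' processing notes name HISAT2 and GRCm38. The sources used here do not state the counting program, annotation, strand setting or filters. No row lacked a gene name.

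Effective library sizes came from TMM (edgeR 4.0.16 under R 4.3.3), and CPM are counts per 1000000 of that size. Tested were 12495 genes, those averaging 1 CPM or more. The KO to WT ratio carries a 95% interval from the exact binomial (Clopper-Pearson) limits of the read split (scipy 1.17.1). Since PCR copies cannot be recognised without molecular identifiers, intervals and floors cover counting error only. log2 ratios had 0.5 CPM added to both values, which understates differences of low genes. With 1 library per genotype no p-value was computed. Intervals of levels per kilobase are exact Poisson intervals, with union exon lengths and positions from GENCODE M21 (GRCm38). The calculation was tested on simulated data.

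The 10 genes, the 6 pathway lists and the 8 cell type lists were chosen with earlier results of these data known. Named are the 10 genes, Tnfaip8l1 and Lyz2, up to 6 called genes per list averaging 5 CPM or more, and fixed partners, copies and ligands of the 10. Other genes named as examples were chosen after their values were seen. A few list members that this rule takes are not reported here, but are counted in their lists. Alternatives were scaling by total counts, the upper quartile or DESeq2 1.42.0 size factors, 2 CPM added, other filters, and a 2-fold threshold.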

Additional observations from a re-analysis of the deposited data

How the results depend on the processing

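No paired analysis was possible because the design has 1 library on either side. Of 238 recomputed values, 210 stayed within their counting interval or, for counts of genes, within 1.5 times, and no called direction was reversed. Scaling by total counts multiplied every KO to WT ratio by 0.952 and took the Srebf1 ratio to 0.985. It left 0 storage and transport genes higher and 1 SREBP pathway gene higher. Requiring a mean of at least 10 CPM gave 412 genes higher and 223 lower among all tested. It left 1 other LXR target, 1 receptor gene and 0 SREBP pathway genes lower. With that filter the SREBP pathway median log2 ratio went from -0.02 to 0.19. Without a filter 3 storage and transport genes were lower. At 2-fold, 323 genes were higher and 597 lower among all tested, and of the 10 genes 2 were higher (Lpl and Nr1h3) and 0 lower, with Nr1h3 at 1.96-fold under total counts. At 2-fold 1 other LXR target, 1 receptor gene, 0 storage and transport genes and 0 SREBP pathway genes were higher, and 1 SREBP pathway gene was lower. Depth limits Scd1, Vldlr, Olr1 and Elovl6, which had under 100 reads in each library, and genes near the floor of 3 reads.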
